A study of Mus musculus with 8 samples.

Results

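The genes described are 9 members of the Hedgehog pathway, Gli1, Gli2, Gli3, Ptch1, Hhip, Smo, Sufu, Gas1 and Boc, measured in mouse embryonic fibroblasts (MEFs, cells grown out of embryos and kept in culture) that lack the Hippo pathway kinase Lats2. Members were the gene probes of the array whose gene name was one of these 9 symbols. They held 19 of the 41174 gene probes, and 12 of the 19, for 8 of the 9 genes, were bright enough to be tested among the 22642 probes kept. To be kept, a probe had to exceed its background clearly in 2 or more of the 3 RNA extracts of one genotype. Gli1 had no such probe, so counts of tested members are counts of the other 8.

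The study compared Lats2-/- MEFs with Lats2+/+ MEFs of the same litter, from 3 litters numbered 112, 116 and 121. Both genotypes carried the strain name C57BL/6J, were grown in DMEM with 10% fetal bovine serum, penicillin and streptomycin, and received no treatment. Each litter gave 1 Lats2-/- clone and 1 Lats2+/+ clone, so a litter's ratio holds any difference between these clones as well as the genotype, and the labels give no age of the embryos. Both extracts of a litter were hybridised to the same Agilent arrays in Cy3 and Cy5, on 2 dye-swapped arrays for litters 112 and 116 and on 4 for litter 121. The values below are log2 ratios of Lats2-/- over Lats2+/+, averaged over the arrays of a litter, so n = 3 litters for every mean ± SD.

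In the absence of a Hedgehog ligand, the receptor Ptch1 holds back the membrane protein Smo. Ligand binding, helped by coreceptors such as Gas1 and Boc, frees Smo, which acts through the primary cilium on the Gli transcription factors and their cytoplasmic inhibitor Sufu. Gli2 is known mainly as an activator, and Gli3 mainly as a repressor in its processed form. Gli1, Ptch1 and Hhip are transcribed in response to the pathway and are often read as its targets, and Ptch1 and Hhip in turn restrain it by binding ligand. Gli2, Gli3, Smo, Sufu, Gas1 and Boc are called transducers here, and Gli1, Ptch1 and Hhip target genes.

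A few facts of the whole array touch every value. No probe passed an adjusted p of 0.05 (limma, Benjamini-Hochberg over 22642 probes), where the smallest adjusted p was 0.634, so 0% of probes were called, while 1549 had an unadjusted p under 0.05. The methods' t-test on the same litter values also called 0 after adjustment, with 1348 at an unadjusted p under 0.05. Lats2 itself was measured by 4 probes. The most upstream probe, A_52_P425064 (mm8, chr14:56676512-56676571), gave log2 ratios of -1.33, -1.05 and -0.56 in litters 112, 116 and 121, below 0 on 8 of 8 arrays. The 3 other probes lay below 0 in litters 112 and 116 but between 0.80 and 1.17 in litter 121, so in that litter only the upstream probe followed the label. Where the deleted part of Lats2 lies is not given in the sources used here. Litters 112 and 116 shared slide 1 and litter 121 was alone on slide 2, so slide and litter 121 cannot be told apart.

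Defining fibroblast markers were well above background, 7 of 8 of them in all 6 extracts, while Epcam (epithelial), Cdh5, Pecam1 and Tie1 (endothelial) and Adgre1, Itgam and Ptprc (macrophage) were above it in none. Of these lists, 2 of 6 epithelial, 1 of 5 endothelial and 2 of 5 macrophage genes had a kept probe. The markers still moved by litter. The median log2 ratio of the 8 fibroblast genes ran from 0.10 (litter 112) to 1.95 (litter 116) and down to -0.93 (litter 121), and their summed linear signal ran from 213000 to 438000 in the Lats2-/- extracts and from 187000 to 399000 in the Lats2+/+ extracts. The muscle, chondrocyte and neural lists, with 1 of 4, 3 of 4 and 3 of 5 genes kept, also had their highest medians in litter 116, at 3.48, 1.41 and 0.77. The 10 proliferation genes had medians of -0.55, -0.64 and 0.39, with 9, 10 and 0 of them below 0. The part of these shifts in the Hedgehog values was not tested. In such bulk extracts, fewer cells of a type and less RNA per cell cannot be told apart.

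**Figure D1:**
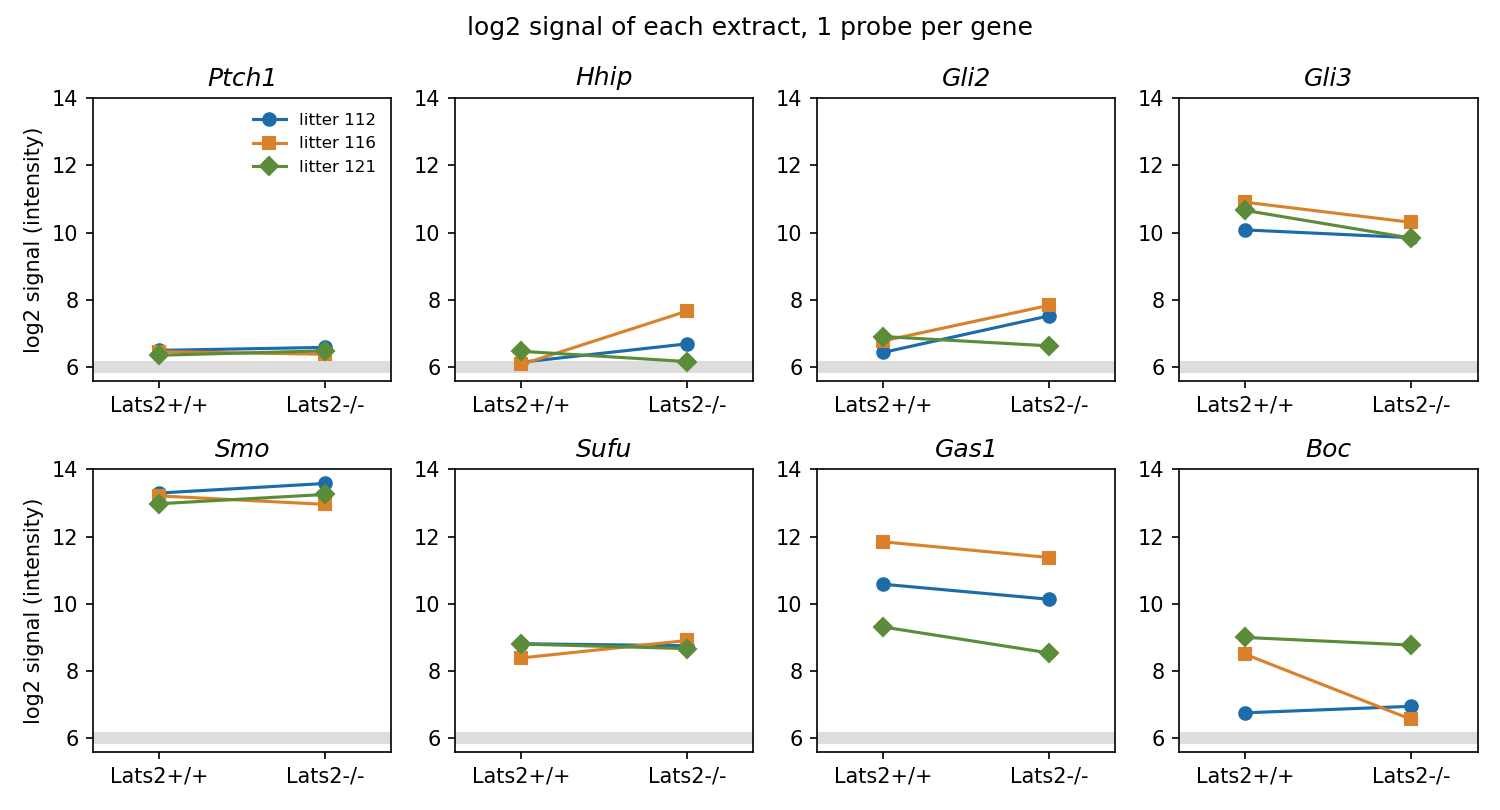
log2 signal of the brightest kept probe of each tested Hedgehog gene in the 6 extracts, with each litter's Lats2+/+ and Lats2-/- extracts joined by a line. The grey band spans the lowest signals that counted as well above background on the 8 arrays, from 5.87 to 6.15. Gas1 and Boc span over 2 log2 units between Lats2+/+ litters, Ptch1 lies close to the band in all extracts, and Hhip leaves it mainly in the Lats2-/- extract of litter 116, at 7.67.

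Among the 6 transducers, the coreceptor Gas1 and the transcription factor Gli3 were lower in Lats2-/- cells of all 3 litters, and on 8 of 8 arrays each. The sizes were modest, 1.48-fold for Gas1 and 1.46-fold for Gli3 on the mean, and neither passed the adjusted threshold. The promoters of this pair are shown because their ratios had 1 sign in all litters, and those of Hhip and Gli2 because their ratios were above 0 in litters 112 and 116 and below 0 in litter 121. Ptch1 and Smo also shared their signs litter by litter, and their promoters are not printed. Each line gives the 250 bases before the annotated start, 5′ to 3′ on the gene's strand, from RefSeq on GRCm38.p6. Capitals mark CG dinucleotides, the sites of CpG methylation, whose dense islands are known as places where Polycomb complexes act.
Gli3: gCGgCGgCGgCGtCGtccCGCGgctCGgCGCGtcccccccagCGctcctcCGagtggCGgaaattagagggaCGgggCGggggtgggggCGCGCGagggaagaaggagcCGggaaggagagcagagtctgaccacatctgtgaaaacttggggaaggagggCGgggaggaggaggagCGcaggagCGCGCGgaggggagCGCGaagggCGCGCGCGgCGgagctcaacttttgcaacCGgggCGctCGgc
Gas1: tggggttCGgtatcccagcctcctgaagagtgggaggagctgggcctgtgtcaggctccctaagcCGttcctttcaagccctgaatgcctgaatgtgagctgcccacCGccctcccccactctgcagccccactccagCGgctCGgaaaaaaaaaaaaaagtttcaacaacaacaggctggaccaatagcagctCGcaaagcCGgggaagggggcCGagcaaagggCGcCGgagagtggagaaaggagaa
Hhip: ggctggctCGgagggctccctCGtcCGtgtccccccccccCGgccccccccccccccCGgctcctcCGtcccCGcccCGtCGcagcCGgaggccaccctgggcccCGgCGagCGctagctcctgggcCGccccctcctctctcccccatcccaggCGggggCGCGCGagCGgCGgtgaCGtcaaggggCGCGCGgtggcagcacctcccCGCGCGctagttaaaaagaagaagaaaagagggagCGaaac
Gli2: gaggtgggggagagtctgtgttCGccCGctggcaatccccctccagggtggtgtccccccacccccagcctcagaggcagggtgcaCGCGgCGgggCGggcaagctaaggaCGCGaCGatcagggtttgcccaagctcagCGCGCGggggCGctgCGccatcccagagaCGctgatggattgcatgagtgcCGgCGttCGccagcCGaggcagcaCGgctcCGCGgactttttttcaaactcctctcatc
The windows are chr13:15463473-15463722 on the plus strand for Gli3, chr13:60177536-60177785 on the minus strand for Gas1, chr8:80058009-80058258 on the minus strand for Hhip and chr1:119053620-119053869 on the minus strand for Gli2. Gli3 held 34 CG dinucleotides, Hhip 28, Gli2 22 and Gas1 10, against a median of 6 and an upper quartile of 16 over 32851 promoters in the table. Ptch1, not printed, held 41, Smo 15 and Sufu 8. The Gli binding consensus GACCACCCA, searched on both strands (TGGGTGGTC on the other), was in 0 of the 7 member windows of 300 bases and in 83 (0.253%) of all windows. That says only that these letters were not there, and the table did not list Gli1 or Boc.

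Gas1 encodes a membrane-anchored protein that binds Hedgehog ligand and is known for its rise in growth-arrested fibroblasts. Its only probe, A_51_P157083 (mm8, chr13:60184661-60184720, minus strand), read, in the order of litters 112, 116 and 121 used throughout, 10.6, 11.8 and 9.31 log2 units for Lats2+/+ and 10.1, 11.4 and 8.54 for Lats2-/-. Each Lats2-/- extract lay below its own littermate, but the genotypes overlapped across litters, since the Lats2+/+ levels alone spanned 2.53 log2 units. The litter ratios were -0.45, -0.47 and -0.77, with a mean of -0.56 ± 0.18 (SD) and a 95% interval from -0.90 to -0.22 (limma, unadjusted p = 0.0108, adjusted p = 0.711). Taken without the pairing by litter, the same values gave an unadjusted p of 0.555 (limma), and without litter 121 the paired p was 0.0516 (limma, unadjusted). The proliferation list, at -0.55, -0.64 and 0.39, did not keep 1 sign over the litters as Gas1 did, and its part in the Gas1 value was not tested.

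Gli3 was read by A_51_P171288 (mm8, chr13:15520556-15520615, plus strand) at 10.1, 10.9 and 10.66 in the Lats2+/+ extracts and at 9.85, 10.3 and 9.84 in the Lats2-/- extracts. The highest Lats2-/- extract, that of litter 116, was above the lowest Lats2+/+ extract, that of litter 112. The ratios were -0.23, -0.60 and -0.82, with a mean of -0.55 ± 0.30 (SD) and an interval from -0.99 to -0.11 (limma, unadjusted p = 0.0262, adjusted p = 0.711). The arrays of a litter spanned 0.42, 0.39 and 0.38 log2 units, about as much in each. The unadjusted p rose to 0.0962 without litter 116, to 0.103 without litter 121 and to 0.0856 by the methods' t-test in place of limma. The other Gli3 probe, A_51_P410070, was well above background on no array and so could not be read against the first.

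Boc, a second coreceptor, varied in 1 litter alone. Probe A_52_P319495 (mm8, chr16:44405064-44405123, minus strand) gave 6.76, 8.50 and 9.001 in the Lats2+/+ extracts and 6.96, 6.57 and 8.77 in the Lats2-/- extracts. The drop was in litter 116, where the ratio was -1.93 on both dye-swapped arrays, a 3.81-fold difference, while litters 112 and 121 stood at 0.19 and -0.23. The mean was -0.65 ± 1.12 (SD; limma, unadjusted p = 0.247, adjusted p = 0.794), and without litter 116 it was -0.02, without litter 112 -1.08 and on the processed signals -1.12. Litter 116 is also the litter in which the fibroblast list stood at 1.95, and its part in the Boc value was not tested. Of the 2 other Boc probes, neither was kept.

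Gli2, the main activator of the family, had ratios of 1.09, 1.06 and -0.28. Probe A_52_P357829 (mm8, chr1:120662224-120662283, minus strand) read 6.44, 6.78 and 6.91 in the Lats2+/+ extracts and 7.53, 7.84 and 6.63 in the Lats2-/- extracts. In litter 112 the Lats2+/+ spot was above background on 0 of 2 arrays, so the difference there was at least 2.12-fold, and in litter 116, where both extracts were measured, it was 2.08-fold. Litter 121 went the other way on all 4 arrays, from -0.38 to -0.15. The mean of 0.62 ± 0.78 (SD), which holds the bound of litter 112 and so has no exact size, did not pass (limma, unadjusted p = 0.143, adjusted p = 0.754). Each litter moved the mean. It was 1.07 without litter 121 (limma, unadjusted p = 0.00497), which again holds the bound of litter 112, so that p supports nothing. It was 0.39 without litter 112 (limma, unadjusted p = 0.426) and 0.40 without litter 116 (limma, unadjusted p = 0.413), the latter with the bound. The second Gli2 probe, A_52_P564620, was not kept, and was above background only in the Lats2-/- extract of litter 116. Its ratios were 0.07, 0.14 and 0.04, of which that of litter 116 is a bound of at least 1.11-fold. Those of litters 112 and 121 compare background with background.

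Smo and Sufu showed no direction shared by the litters. Smo, the membrane protein on which the pathway turns, was bright on probe A_51_P258766, at 13.3, 13.2 and 13.0 in the Lats2+/+ extracts and 13.6, 13.0 and 13.3 in the Lats2-/- extracts. Its ratios were 0.28, -0.25 and 0.28, a mean of 0.10 ± 0.31 (SD) with an interval from -0.35 to 0.55, and the mean was 0.01 to 0.28 as each litter was left out. The second kept Smo probe, A_52_P444864, had 0.23, -0.32 and -0.06, so the 2 probes differed in sign in litter 121. Sufu, the inhibitor that retains Gli proteins in the cytoplasm, gave 8.81, 8.39 and 8.81 in the Lats2+/+ extracts and 8.76, 8.91 and 8.67 in the Lats2-/- extracts on A_52_P340811. Only litter 116 moved by more than 0.14, to 0.52, and the mean was 0.11 ± 0.36 (SD) with an interval from -0.39 to 0.61. Of the dimmer Sufu probes, A_52_P603184 gave 0.10 in litter 116 and A_51_P396550 gave 0.15. The latter was kept only through its Lats2-/- extracts. Its Lats2+/+ spots in litter 116 were not above background, so its value there is a bound of at least 1.11-fold and no support.

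**Figure D2:**
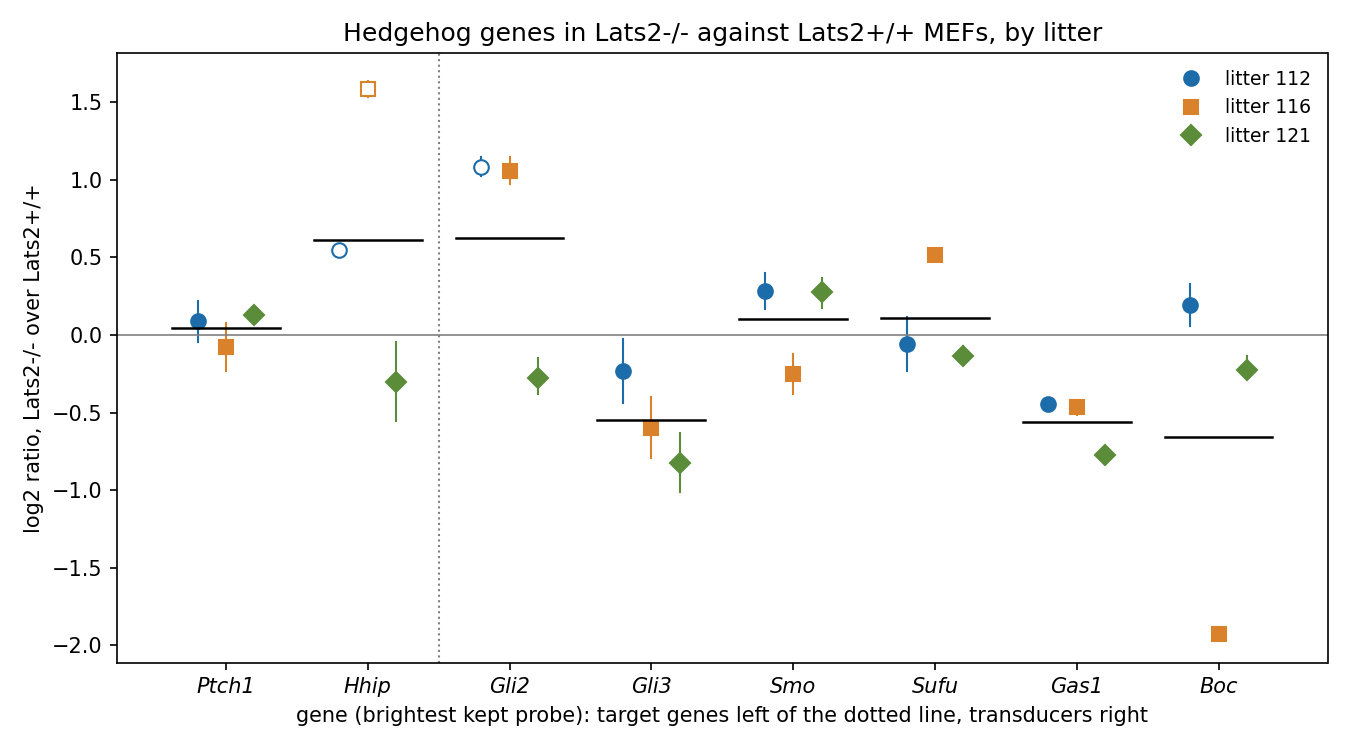
log2 ratio of Lats2-/- over Lats2+/+ for the brightest kept probe of each tested gene, with a symbol per litter, a thin line from the lowest to the highest array of that litter and a black bar at the mean of the 3 litters. Open symbols mark ratios whose Lats2+/+ spots were not well above background on any array, so that the difference is at least as large as its bound in the text. Gas1 and Gli3 lie below 0 in all 3 litters, while Hhip and Gli2 are high in litters 112 and 116 and below 0 in litter 121.

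The target genes were dim. Gli1, the target most often used as a readout of the pathway, was represented by A_51_P518548 (mm8, chr10:126733884-126733943, minus strand) in 10 spots per array. It was well above background on 0 of 8 arrays in either genotype, with log2 signals from 6.07 to 6.25 over the 6 extracts, and its ratios of -0.10, 0.09 and -0.02 compare background with background. A difference in Gli1 was therefore not detectable at this signal.

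Ptch1 lay just above background. Probe A_52_P598605 (mm8, chr13:63518212-63518271, minus strand) gave 6.50, 6.46 and 6.36 in the Lats2+/+ extracts and 6.59, 6.38 and 6.49 in the Lats2-/- extracts, which overlap. The ratios were 0.09, -0.08 and 0.13, with a mean of 0.05 ± 0.11 (SD) and an interval from -0.25 to 0.34 (limma, unadjusted p = 0.678). The second kept probe, A_51_P127435, had a mean of -0.04 ± 0.08, but it was kept only through its Lats2+/+ extracts. In litter 121 it was above background on 0 of 4 arrays in either genotype, so its mean supports no direction. With the processed signals of the scanner software, from which background is subtracted, the mean of A_52_P598605 was -0.15, so no direction can be given. The offset of 50 draws ratios near background towards 0, and the interval covers only what the probe could read.

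Hhip encodes a membrane protein that binds Hedgehog ligands and keeps them from Ptch1. It was above background in 2 of 3 Lats2-/- extracts and 1 of 3 Lats2+/+ extracts, so it was kept only through the genotype where it is high, and its values are a description that its p does not support. Its probe A_52_P249826 (mm8, chr8:82868387-82868446, minus strand) read 6.15, 6.08 and 6.47 in the Lats2+/+ extracts and 6.69, 7.67 and 6.17 in the Lats2-/- extracts. In litters 112 and 116 the Lats2+/+ spots were above background on 0 of 2 arrays each, and the Lats2-/- level was higher, by at least 1.46-fold in the first litter and by at least 3.01-fold in the second. In litter 121 the ratio was -0.31, with 1 of 4 Lats2-/- spots and 3 of 4 Lats2+/+ spots above background. The mean was 0.61 ± 0.95 (SD; limma, unadjusted p = 0.211, adjusted p = 0.773). Without litter 121 the mean was 1.07, over the same litters that let the probe through the filter, and without litter 116 it was 0.12. These means hold ratios that are only bounds, so their size is not exact. The second probe, A_51_P416822, gave 0.13, 0.37 and -0.08, and was above background in 1 Lats2-/- extract alone, that of litter 116. Its value there is a bound of at least 1.28-fold, and its signs in litters 112 and 121 compare background with background. The order of the litters, highest in 116 and lowest in 121, was that of the fibroblast list at 0.10, 1.95 and -0.93, and the part of that shift in the Hhip value was not tested.

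The members' counts were set beside the shares over all genes. Of the 8 members tested, 0 had a higher and 2 a lower level at an unadjusted p under 0.05 (limma), where 4.15% and 3.45% of all 14727 genes did, and 0 of 8 passed the adjustment. The 2 were Gas1 and Gli3. By the methods' t-test Gas1 alone had such a p. Without litter 121 neither did, while Gli2 and Hhip, both higher, then did, at limma's unadjusted p = 0.00497 and limma's unadjusted p = 0.0475. Hhip there rests on the litters that let its probe through the filter, so its p supports nothing. For Gli2 the Lats2+/+ spots of litter 112 were not above background, so the Gli2 p over those litters supports nothing either. A single sign in all 3 litters was found for 2 of 8 members and for 30% of all genes. A change of at least 2-fold in 1 or more litters was found for 3 of 8 members, Hhip, Gli2 and Boc, and for 15.8% of all genes. For 4 of 8 members, Ptch1, Smo, Gas1 and Boc, the range of Lats2+/+ levels over litters exceeded the largest ratio in any litter, as it did for 58.2% of all genes. The median of the 8 mean ratios was 0.07, against 0.01 over all genes.

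Target genes were then set against transducers within each litter, on the median log2 ratio of Ptch1 and Hhip and that of the 6 transducers. In litter 112 the target median was 0.32 and the transducer median 0.07. In litter 116 they were 0.75 and -0.36, and in litter 121 -0.09 and -0.25. The difference was thus 0.25, 1.11 and 0.16, with a mean of 0.51 ± 0.52 (SD) that is given without a test, since it is a score over chosen genes. In litters 112 and 116 the Hhip ratio is a lower bound, so the difference there is at least 0.25 and at least 1.11, and the mean has no exact size. The target side is 2 genes of which Ptch1 was flat, so it was Hhip, kept only through its Lats2-/- extracts, that carried the target median up in litters 112 and 116. The selection of Hhip favours a difference above 0 in those litters, and nothing is read from its sign. In litter 121 both medians were below 0, with Ptch1 at 0.13 and Hhip at -0.31. Without litter 116 the mean difference was 0.21, on the processed signals it was 1.24, and with no filter, where Gli1 joins the target genes, it was 0.24. The median over all 14727 genes was 0.02, 0.01 and 0.01 in the 3 litters.

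**Figure D3:**
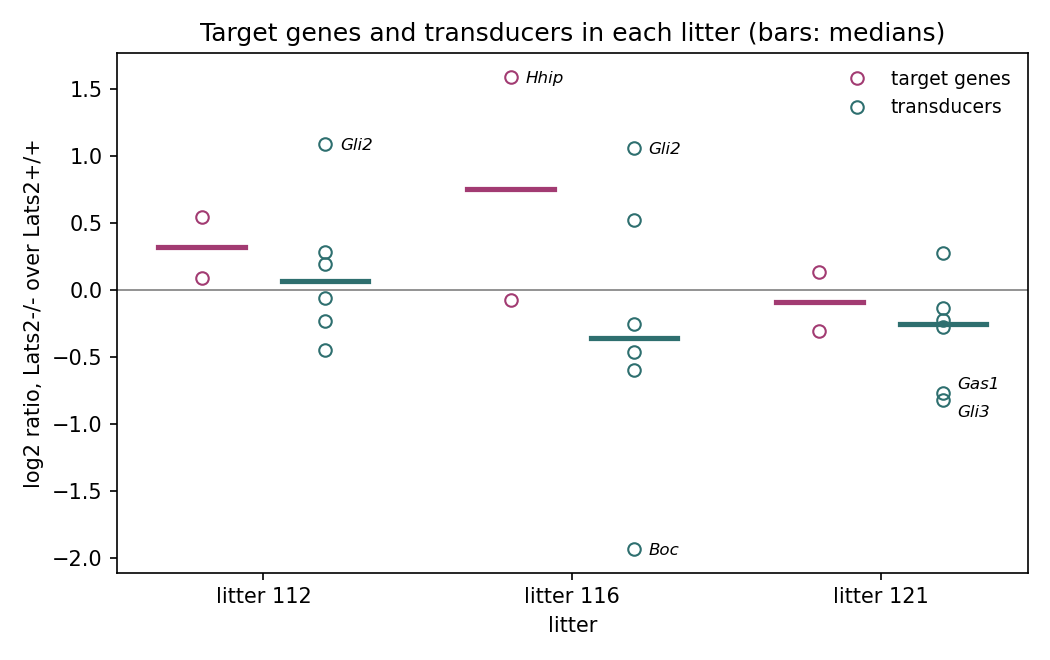
log2 ratio of Lats2-/- over Lats2+/+ of the target genes Ptch1 and Hhip and of the 6 transducers in each litter, with each gene an open circle and the median of a class a bar. Genes at least 0.7 from 0 are named. The bars differ by 0.25, 1.11 and 0.16, with Hhip kept only through its Lats2-/- extracts, and the gap in litter 116 joins a target median of 0.75, raised by Hhip, with a transducer median of -0.36.

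Of 43 further genes of the pathway, 42 had a probe (Foxl1 had none) and 33 a kept one. At an unadjusted p under 0.05, 2 of 33 were higher and 1 lower in Lats2-/- cells, beside 4.15% and 3.45% of all genes, and 0 passed the adjustment. Without litter 121 only 1 of 33 had such a p. Their median mean ratio was 0.13, against 0.01 over all genes. On the mean, 24 lay above 0 and 9 below, a split whose share over all genes was not counted, so nothing is read from it. A single sign in all litters was kept by 12 of 33, and 5 of 33 were at least 2-fold in 1 or more litters, beside 30% and 15.8% of all genes. These 5 were Lrp2, Foxf2 and, named here after their values were seen, Gpc3, Bcl2 and Nr2f2, which reached 2.36, 1.43 and -1.06 in litter 121. The ligands Shh, Ihh and Dhh were well above background on no array, with log2 signals from 5.91 to 6.19.

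Disp1, which releases lipid-bearing Hedgehog ligand from the cells that make it, was higher in all 3 litters. It read 8.02, 8.21 and 9.32 in the Lats2+/+ extracts and 8.86, 8.65 and 10.1 in the Lats2-/- extracts, and each Lats2-/- extract was above its littermate. The ratios were 0.84, 0.45 and 0.77, with a mean of 0.69 ± 0.21 (SD; 1.61-fold; limma, unadjusted p = 0.00681, adjusted p = 0.711), and its second kept probe had a mean of 0.77. Stk36, a kinase-family protein named for its fly relative Fused, stood at 0.30, 0.30 and 0.40, on average 0.33 ± 0.06 (SD; limma, unadjusted p = 0.0286), but its second probe gave -0.09 in litter 116. Ccnd1, the cyclin D1 gene, which many growth signals besides Hedgehog induce, was lower, at -0.39, -0.29 and -0.60, on average -0.43 ± 0.16 (SD; limma, unadjusted p = 0.0223, adjusted p = 0.711).

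Lrp2, an endocytic receptor that binds Shh, had the widest ratios of the list. Its brightest probe read 6.39, 6.15 and 7.37 in the Lats2+/+ extracts and 6.50, 8.67 and 10.9 in the Lats2-/- extracts. In litter 121 the level was 11.2-fold higher, and in litter 116, where the Lats2+/+ spots were not above background, at least 5.74-fold higher. Litter 112 showed only 0.11. The mean was 2.04 ± 1.74 (SD; limma, unadjusted p = 0.0522, adjusted p = 0.711), but this probe was above background in 3 Lats2-/- extracts and 1 Lats2+/+ extract, so it was kept only through the genotype where it is high and the p does not support the difference. A second kept probe had 0.27, 2.39 and 2.64 (unadjusted p = 0.0346, limma), of which the value in litter 116 is a bound of at least 5.24-fold. The third had 0.06, 0.36 and 1.17 (unadjusted p = 0.112, limma), was above background on no array in litter 112 and was also kept only through the Lats2-/- extracts, so no size is set against the others.

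By role, the 12 cytoplasmic regulators had a median mean ratio of 0.08, with 1 higher (Stk36) at an unadjusted p under 0.05, and the 11 ciliary components a median of 0.13 with none. The primary cilium is the compartment in which Smo meets the Gli proteins, and its components had litter ratios between -0.63 (Dync2h1, litter 116) and 0.52 (Ift122, litter 121). Among 5 kept genes listed as other reported targets, the median was -0.30, with 1 lower (Ccnd1). Foxf2, a forkhead factor of mesenchyme named here after its values were seen, had ratios of 0.36, 2.20 and -1.10, the same order of litters as Hhip and as the fibroblast list.

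**Figure D4:**
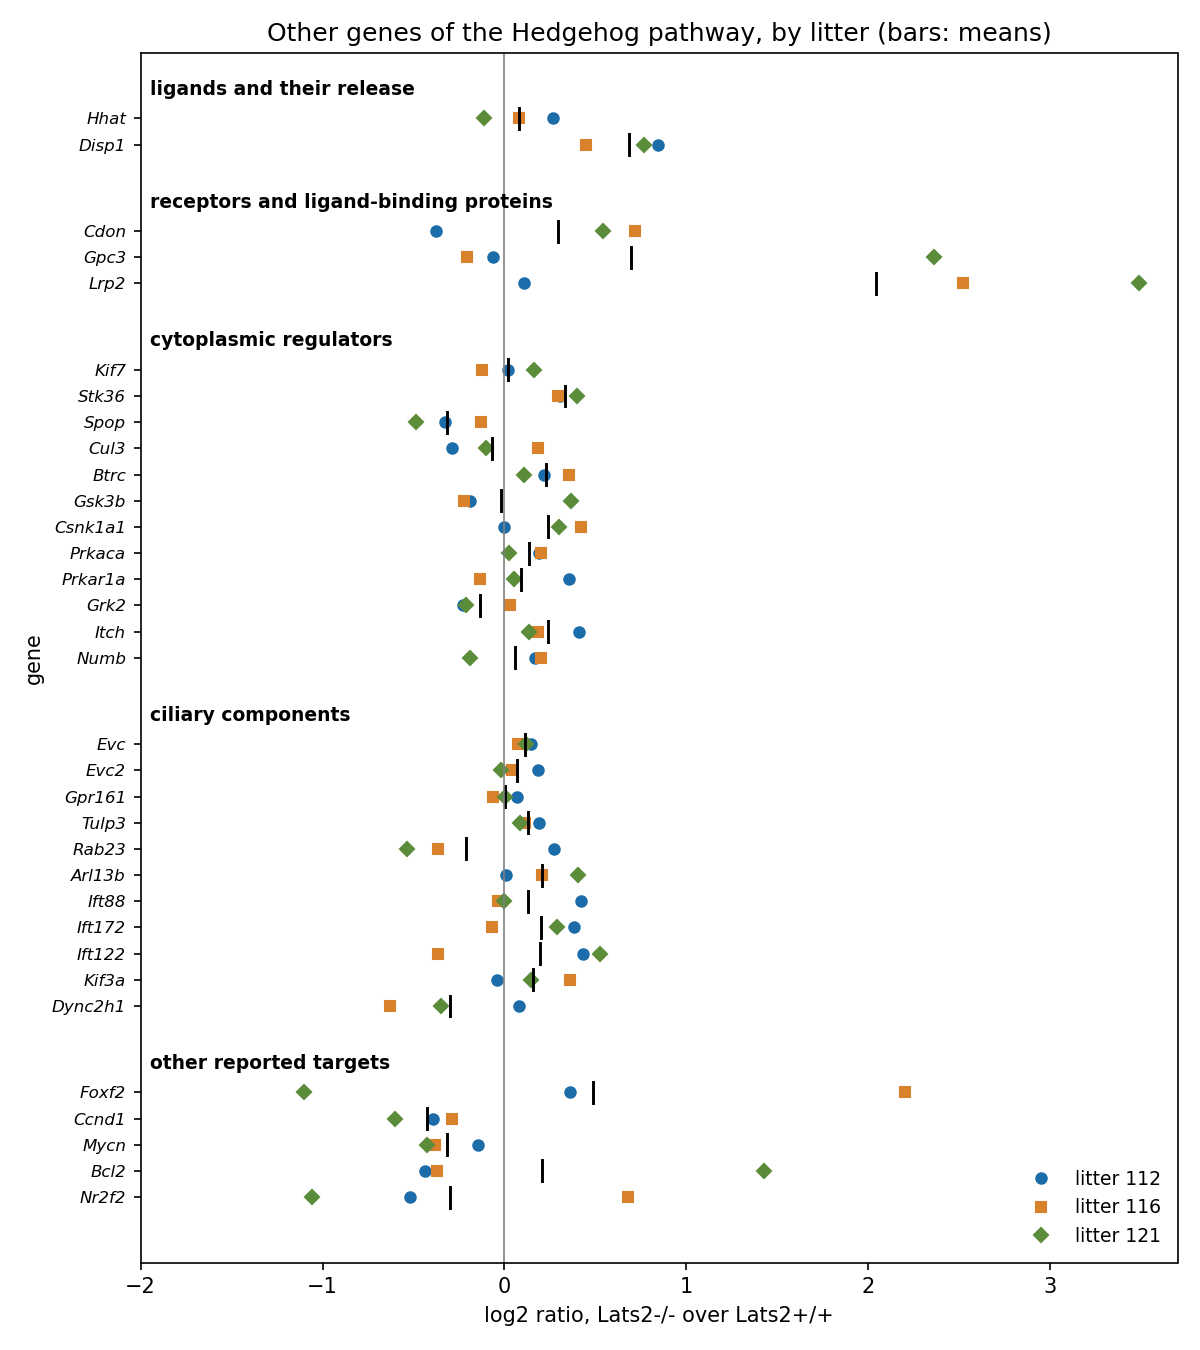
log2 ratio of Lats2-/- over Lats2+/+ for 33 other pathway genes, grouped by role, with a symbol per litter and a black bar at the mean of the 3 litters. Most genes lie near 0 with litters on both sides, and 12 of 33 lie on 1 side in all 3 litters. Among these 12, Disp1 and Stk36 are right of 0, Ccnd1 is left of 0, and Lrp2 reaches 3.49 in litter 121.

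Since Gli1 could not be read, likeness of pattern was taken against Ptch1, as Pearson's r of log2 levels over the 6 extracts. The 5 highest were Tle5 (r = 0.987), AK049426 (0.984), BB114402 (0.981), Ly96 (0.978) and Usp20 (0.970). The points share arrays and normalisation, Ptch1 spanned only 6.36 to 6.59, and with 14727 genes over 6 points such values describe these extracts only.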

How the data were processed

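RNA of 6 MEF extracts was hybridised to 8 two-colour Agilent whole mouse genome arrays. Scans were read by the authors in Agilent's Feature Extraction software, for which the headers of the files give version 10.7.3.1 and the submitters' processing notes 10.5.1.1. The deposited scanner files give spot intensity on a linear scale and a log10 ratio, and the authors' value table holds the ratio turned to Lats2-/- over Lats2+/+ on every array. Probe coordinates are mm8, per the file headers.

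Mean intensity was corrected by normexp (offset 50) with limma 3.58.1 in R 4.3.3, control and outlier spots were left out, and each array was normalised by loess. Ratios were turned by dye label, repeat spots averaged, and the arrays of a litter averaged, since they repeat the same 2 extracts. Log2 signals per extract followed Aquantile scaling between arrays. The pairing of extracts comes from the litter numbers in the labels. Litter ratios of 22642 probes were tested against 0, two-sided, with Benjamini-Hochberg adjustment, and a gene is given by its brightest kept probe. A probe above background on no array of one genotype gives an "at least" fold, against the higher of its own signal and the lowest signal well above background. The precision is set by the 3 litters.

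The fit was tested on simulated data. Members and lists were chosen with earlier results of these data known. Named pathway genes had an unadjusted p under 0.05 or a 2-fold ratio of 1 sign in 2 or more litters, with the 3 ligands added. Genes named as like Ptch1 had the 5 highest correlations. Promoters come from the RefSeq table of GRCm38.p6, which held 7 of 9 members. Alternatives tried were offset 16, the processed signals, the value table, median centring, a stricter filter and none, no pairing, slide as a block, the methods' t-test, the mean of a gene's probes and leaving out each litter.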

Additional observations from a re-analysis of the deposited data

How the results depend on the processing

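No alternative called a probe after adjustment, and Gas1, Gli3, Boc, Gli2, Hhip and Smo kept the sign of their mean under every alternative that could be run, though not its size: Boc ran from -1.13 to -0.02 and Smo from 0.01 to 0.28. Ptch1 reversed to -0.15 with the processed signals and with the value table, and Sufu to -0.10 without litter 116 (0.23 without litter 121). Hhip ran from 0.12 to 2.08 and Gli2 from 0.39 to 1.34, both highest on processed signals, where ratios to spots not above background have no exact size. The target minus transducer difference, 0.51, was 1.24 on both processed signals and the value table. It ran from 0.21 to 0.68 over the litters left out. The number of probes at least 2-fold changed with an unadjusted p under 0.05, 189 (144 higher and 45 lower), was 305 with offset 16, 551 on processed signals (336 higher and 215 lower), 545 on the value table, 112 with no replicate block (extracts unpaired), 418 with slide as a block, 71 by the methods' t-test, and 260 to 373 over the litters left out. The pathway genes at an unadjusted p under 0.05, 3 of 33, were 5 with median centring, 7 of 42 with no filter (6.38% of all genes there, 7.6% with the filter), 5 with slide as a block, and 1 to 4 over the litters left out. Why these counts moved was not tested. The filter for all 6 extracts dropped Gli2, Hhip and Ptch1, so it gave no target value. The unpaired fit raised the unadjusted p of Gas1 to 0.555 and of Gli3 to 0.0786, and the methods' t-test that of Gli3 to 0.0856. Signal near background limits Gli1, Ptch1 and Hhip.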
